A study of Mus musculus with 22 samples.

Results

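The transcription factors Fos, Fosb, Fosl1, Fosl2, Jun, Junb, Egr1, Egr2 and Myc and the stress-response gene Ier3 were followed in mouse aortic samples. The samples are labelled as endothelial cells (MAECs), the cells that line the aorta. These 10 genes were chosen by name as immediate early genes, with earlier results of these data known. All but Ier3 belong to the AP-1, EGR and MYC families. They are 10 of the 11807 genes that the probe sets of 22 Affymetrix arrays name, and 13 probe sets carry their symbols. Where a gene had more than 1 probe set, that with the highest mean over all 22 arrays was used. Values are log2 signals made by RMA, so a difference of 1 is a doubling of signal.

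The arrays form 6 groups, all of strain C57BL/6. The 2 fresh groups held MAECs of 4-week-old untreated mice on chow, wild-type (n = 6) and ApoE -/- (n = 4); the ApoE -/- mice lack apolipoprotein E from birth in every cell and are labelled hyperlipidemic but not yet lesioned. The other 4 groups (n = 3 each) came from wild-type aortas that were opened and kept for 4 h at body temperature in DMEM with 1% FBS, 1 aorta to a well. This medium was given alone, with lipopolysaccharide (LPS, a bacterial cell wall product) at 4 ng/mL, with oxidized low-density lipoprotein (oxLDL) at 50 µg/mL, or with oxPAPC, an oxidized phospholipid mixture, at 50 µg/mL. The labels give no age for the mice of the incubated aortas. The cells were scraped off the inner wall in collagenase solution, and their RNA, kept only where its integrity number (RIN) reached 7.0, was amplified and then labelled. Medium and fresh groups differ in the opening of the vessel, the 4 h outside the body, the medium and its serum together, and these cannot be told apart. The number of animals behind an array is not in the labels, so every p-value measures only the spread between arrays.

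Immediate early genes are transcribed within minutes of a stimulus from factors already present in the cell, and many of their transcripts are short-lived. Fos and Jun family proteins pair through leucine zippers to form AP-1, which binds TGACTCA-type sites in genes of inflammation, matrix breakdown and growth. Egr1 and Egr2 are zinc finger proteins that bind GC-rich sites and are held back by the corepressors Nab1 and Nab2; in vessel walls Egr1 is known for its response to injury and shear stress. Myc pairs with Max at E-boxes and drives genes of ribosome assembly and cell growth. Ier3 is a stress-induced regulator of cell survival and of MAP kinase signalling.

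The promoters of 4 of these genes are shown because they carry elements known from immediate early genes. Each window is the 250 bases before the annotated start, from RefSeq on build GRCm38.p6, printed 5′ to 3′ on the strand of the gene. Capitals mark a match, and matches were sought on both strands. Of the 10 genes, 7 had a window: Fos, Fosb, Fosl2, Jun, Junb, Egr2 and Ier3. In the Fos window (chr12:85473640-85473889, plus strand) the capitals are the CRE core TGACGT, bound by CREB family factors, which began 66 bases before the start.
Fos: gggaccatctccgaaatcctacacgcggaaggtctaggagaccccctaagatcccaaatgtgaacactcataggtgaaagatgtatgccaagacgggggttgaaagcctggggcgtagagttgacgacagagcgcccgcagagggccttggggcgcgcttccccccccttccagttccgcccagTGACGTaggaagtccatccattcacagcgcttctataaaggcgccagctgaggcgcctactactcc
In the Fosb window (chr7:19310046-19310295, minus strand) the capitals are an EGR site, searched as GCGNGGGCG, which began 50 bases before the start.
Fosb: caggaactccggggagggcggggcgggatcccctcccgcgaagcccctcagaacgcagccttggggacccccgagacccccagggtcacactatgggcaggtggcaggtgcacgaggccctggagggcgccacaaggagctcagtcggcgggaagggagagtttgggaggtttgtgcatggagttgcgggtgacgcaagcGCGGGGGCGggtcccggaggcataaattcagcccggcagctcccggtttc
In the Jun window (chr4:95052223-95052472, minus strand) the capitals are the AP-1-like site TGACATCA, 45 bases before the start.
Jun: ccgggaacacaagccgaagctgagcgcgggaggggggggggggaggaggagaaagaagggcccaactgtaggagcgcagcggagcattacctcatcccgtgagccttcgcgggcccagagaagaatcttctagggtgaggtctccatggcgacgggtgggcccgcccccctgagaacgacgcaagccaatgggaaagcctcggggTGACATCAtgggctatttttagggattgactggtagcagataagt
In the third of 5 Egr2 windows (chr10:67537619-67537868, plus strand) the capitals are a serum response element (CArG box), 72 bases before the start, and a CRE core on the opposite strand, 56 bases before it.
Egr2: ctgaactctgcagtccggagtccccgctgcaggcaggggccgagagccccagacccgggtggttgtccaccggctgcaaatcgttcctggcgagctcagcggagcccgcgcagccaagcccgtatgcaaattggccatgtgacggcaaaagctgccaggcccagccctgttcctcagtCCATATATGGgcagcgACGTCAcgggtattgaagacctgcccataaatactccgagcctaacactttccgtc
Of 32851 such windows in the table, 1.47% held a CArG box, 6.47% a CRE core, 4.7% an EGR site and 2.93% the AP-1-like site. The full AP-1 site TGACTCA stood in 4.46% of all windows, the full CRE TGACGTCA in 1.55% and the E-box CACGTG in 6.02%. The Fosl2 window also held an EGR site, 79 bases before its start, and an E-box stood in another Egr2 window. The Junb and Ier3 windows held none of the elements searched. A match is a description of the letters; no measurement here bears on binding.

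The arrays were alike in scale, with medians of 5.23 to 5.39, and the correlation across genes between arrays of the same group was 0.9771 to 0.9907. Apoe was lower in the ApoE -/- arrays by 1.00 on the log2 scale (exact permutation test, two-sided, p = 0.00476, the smallest that 210 splits can give), although its probe set lay below the 40th percentile of every array. Endothelial markers were present: 16 of 17 passed the level filter, and their mean log2 signal per array ranged from 8.07 to 8.66 in fresh wild-type arrays. All 13 smooth muscle markers on the array passed as well, at a mean of 8.70 to 9.63. On every fresh array their mean exceeded the endothelial one, with group means of 9.03 and 8.46 in wild type and 9.53 and 8.40 in ApoE -/-. Such means do not give shares of cells, but the samples were not of endothelial signal alone. Of 15 macrophage markers, 11 passed when medium and fresh arrays were compared. Only 1 of 7 lymphocyte markers passed. In such bulk samples, fewer cells of a type and less RNA per cell cannot be told apart. The arrays' number limits the precision of every value below.

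Junb was the weakest measurement. Its probe set lay below the 40th percentile (a log2 signal of 4.58 to 4.71) on all 10 fresh and all 12 incubated arrays, so it entered none of the fits. Fosl1 lay below that level on 9 of 10 fresh arrays but on none of the incubated ones. Egr1 stood at the opposite end: on the incubated arrays it measured 11.49 to 11.94, while the highest signal of any probe set was 12.15 to 12.39. The plot of signals by group shows the 10 genes on every array.

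**Figure D1:**
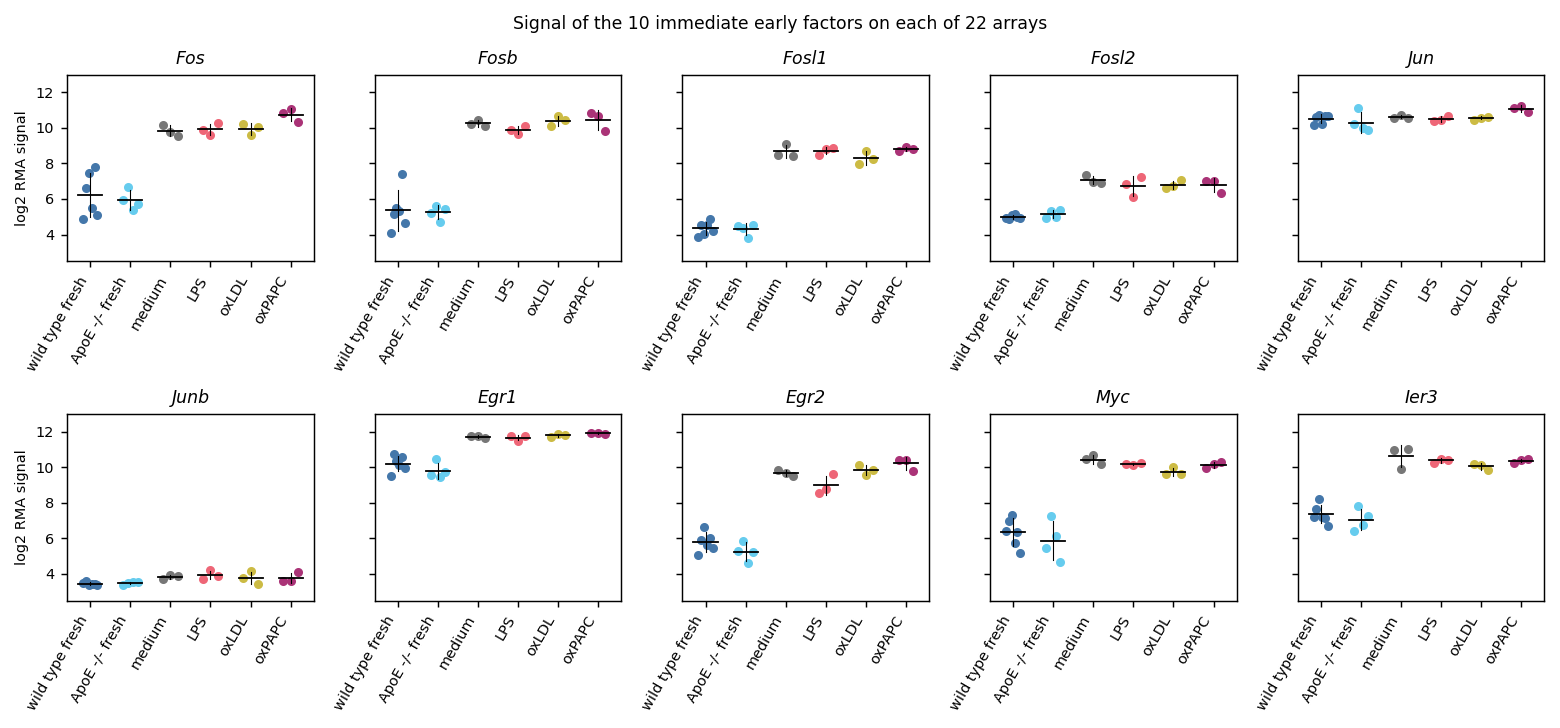
Log2 RMA signal (vertical axis) of each gene on each of 22 arrays, by group (horizontal axis); points are arrays, horizontal bars group means and vertical bars ± 1 SD. For Fos, Fosb, Fosl1, Fosl2, Egr1, Egr2, Myc and Ier3 every incubated array lies above every fresh array, while Jun overlaps between fresh and incubated arrays and Junb stays below 4.3.

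The first comparison asked whether the absence of apolipoprotein E was accompanied by a different level of these factors in cells taken directly from the vessel. No member was called different: 0 of the 8 tested passed (limma, adjusted p under 0.05), where 0.427% of all 7264 genes were, and 0 of the 8 were below an unadjusted p of 0.05, where 1328 genes were. limma with an intensity trend and robust prior also called 0. Egr2, the member with the largest difference, had a lowest, median and highest log2 signal of 5.05, 5.76 and 6.65 in the wild-type arrays and measured 5.29, 5.87, 4.60 and 5.23 in the ApoE -/- arrays. These ranges overlapped, and the difference was -0.54 ± 0.296 (SE; limma adjusted p = 0.358; 95% confidence interval -1.19 to 0.11). Egr1 differed by -0.41 (interval -0.95 to 0.14), Myc by -0.46 (-1.54 to 0.61), Fos by -0.31 (-1.53 to 0.92) and Fosb by -0.10 (-1.19 to 0.99). The interval of Fosl2, the least variable, was -0.10 to 0.40, while those of Fos, Fosb, Egr2 and Myc leave room for a decrease of more than 2-fold. Fosl1 and Junb, both below the level filter, differed by -0.05 and 0.03 (exact permutation test, two-sided, p = 0.81 and 0.576). Among the genes around these factors, 1 of 10 tested AP-1 targets was called: Ccnd1, the cell cycle gene for cyclin D1, differed by -0.94 in ApoE -/- cells (limma adjusted p = 0.0417), a call kept in 3 of 10 fits without 1 array. In the same comparison 13 of 13 smooth muscle markers lay higher in ApoE -/- arrays, none of them called (median 0.50, means of 9.53 and 9.03). The platelet gene Ppbp was called lower (-2.93). Ppbp passed the level filter only through the wild-type arrays, with a mean of 3.55 in ApoE -/- arrays and 6.48 in wild type. The part of these markers was not tested.

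Within the fresh wild-type group the same genes varied widely. Fos ranged from 4.88 to 7.80, a 7.59-fold range of signal over 6 arrays, with an SD of 1.24. Fosb had an SD of 1.13, Myc of 0.79 and Egr2 of 0.55, whereas Fosl2 had one of 0.11 and Jun of 0.25. Wild-type replicate 7 was lowest of its group in 6 of the 10 genes, including Fos, Fosb, Jun, Egr1 and Egr2. Replicate 14 was highest in Fos, Fosb and Fosl1. Replicate 12 was highest in Jun, Egr2, Myc and Ier3, and it also had the lowest endothelial marker mean of its group (8.07) and the highest smooth muscle mean (9.63). Among the ApoE -/- arrays, replicate 4 was highest in 7 of 10, namely Fos, Fosb, Jun, Egr1, Egr2, Myc and Ier3. Its marker means lay within the range of the other 3 arrays for endothelium and smooth muscle (8.39 and 9.57), and its macrophage mean (4.49) was the lowest. Whether cell mixture or handling moved with these levels was not tested.

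**Figure D2:**
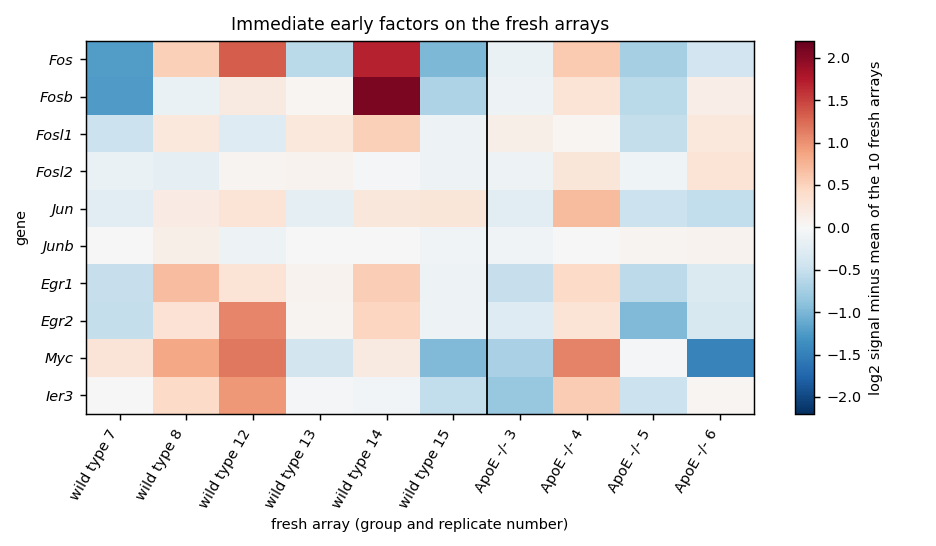
Log2 signal of each gene (rows) on each fresh array (columns, by group and replicate number), as the difference from that gene's mean over the 10 fresh arrays; red is above and blue below that mean. Fos and Fosb are lowest in wild-type replicate 7 and highest in wild-type replicate 14, and ApoE -/- replicate 4 is above 0 in Fos, Jun, Myc and Ier3.

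The second comparison set wild-type aortas kept for 4 h in medium against fresh wild-type cells. Members of all 3 families rose: of 9 tested, 8 were higher in medium and none was lower. Of these, Fosl1 passed the level filter only through the medium arrays (fewer than 3 fresh arrays exceeded it), so that it had to differ once tested, and of the other 8 tested 7 were higher. This stands beside the whole table, where 24.3% of all 7508 genes were called higher and 34.4% lower, 58.7% in all. Fosb rose 29.8-fold, Myc 17.1-fold, Egr2 14.7-fold and Fos 12.1-fold. The median difference was 3.60 over the 9 and 3.44 without Fosl1, beside -0.13 over all genes tested. These 8 stayed called under each of 7 alternative settings and without each of the 9 arrays in turn.

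Of the Fos family, Fosb encodes FosB, a close relative of Fos. Its log2 signal had a lowest, median and highest value of 4.07, 5.26 and 7.39 in fresh wild-type cells, and was 10.24, 10.44 and 10.08 in medium. All 3 medium arrays thus lay above the highest fresh array, while the fresh arrays themselves spanned 3.32 log2 units. The difference was 4.90 ± 0.556 (limma adjusted p = 3.47e-05; interval 3.67 to 6.13). Fos, the archetype of the family, had 4.88, 6.08 and 7.80 as its lowest, median and highest fresh values and measured 10.18, 9.76 and 9.56 in medium, a difference of 3.60 ± 0.613 (adjusted p = 0.000525). Its groups did not overlap either, although the fresh arrays alone covered nearly 3 log2 units. Fosl1, which encodes Fra-1, lay between 3.86 and 4.85 in fresh arrays and at 8.47, 9.11 and 8.44 in medium, a difference of 4.33 ± 0.231 (adjusted p = 3.44e-07). Its size rests on fresh values near background, and its second probe set differed by 5.72, so it has no fixed place in an order of the rises. Fosl2, which encodes Fra-2, went from a range of 4.86 to 5.14 to 7.33, 6.95 and 6.92, a difference of 2.07 ± 0.125 (adjusted p = 6.9e-07). Thus all 4 Fos family genes rose, Fosl2 4.21-fold, Fos 12.1-fold and Fosb 29.8-fold, with no exact fold for Fosl1.

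Neither gene of the Jun family was called. Jun, the main partner of Fos, measured 10.19 at its lowest and 10.73 at its highest in fresh wild-type cells, and 10.57, 10.72 and 10.57 in medium. The medium arrays lay inside the fresh range, with a difference of 0.10 (interval -0.24 to 0.43; limma adjusted p = 0.596), which leaves no room for a doubling. The second Jun probe set differed by -0.33 and the mean of both by -0.12, so the direction depends on the probe set. Junb measured 3.35 to 3.59 fresh and 3.73, 3.94 and 3.86 in medium, a difference of 0.39 (exact permutation test, two-sided, p = 0.0119, the smallest that 84 splits can give). Its groups did not overlap, but all its values were near background, and it was called (adjusted p = 0.0037) only where no level filter was set.

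Of the EGR genes, Egr2 rose the more. Its fresh wild-type values of 5.05 to 6.65 stood apart from 9.84, 9.69 and 9.48 in medium, a difference of 3.88 ± 0.284 (limma adjusted p = 2.15e-06), and its second probe set differed by 3.82. Egr1 measured 9.53, 10.23 and 10.72 as lowest, median and highest fresh values and 11.75, 11.75 and 11.62 in medium, a difference of 1.51 ± 0.232 or 2.84-fold (adjusted p = 0.000271). Egr1 was thus already well above the filter in fresh cells and came close to the highest signal of the array after incubation; how far this compressed its difference was not tested. Myc had 5.17, 6.38 and 7.32 as lowest, median and highest fresh values and measured 10.45, 10.66 and 10.17 in medium, a difference of 4.09 ± 0.398 (adjusted p = 1.24e-05). Ier3 ranged from 6.68 to 8.18 fresh and measured 10.94, 9.91 and 11.01 in medium, a difference of 3.27 ± 0.323 (9.67-fold, adjusted p = 1.34e-05). For both genes the lowest incubated array stood clear of the highest fresh one.

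The separation was not limited to the medium group. For 8 of the 10 genes each of the 12 incubated arrays lay above each of the 10 fresh arrays, ApoE -/- included. Over all 7941 genes above the level filter on the 22 arrays, 9.71% did so. Fosl1, 1 of the 8, passed that filter only through the incubated arrays, and Junb did not pass it. The gap between the lowest incubated and the highest fresh array was 2.28 for both Fosb and Myc, 1.93 for Egr2 and 1.76 for Fos. It was 1.65 for Ier3, 0.78 for Fosl2 and 0.77 for Egr1. That of Fosl1, 3.10, rests on fresh values near background and has no fixed place in this order. In the comparison of medium with fresh wild type alone, 22.3% of all genes had every medium array above every fresh one. Jun and Junb overlapped between fresh and incubated arrays.

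**Figure D3:**
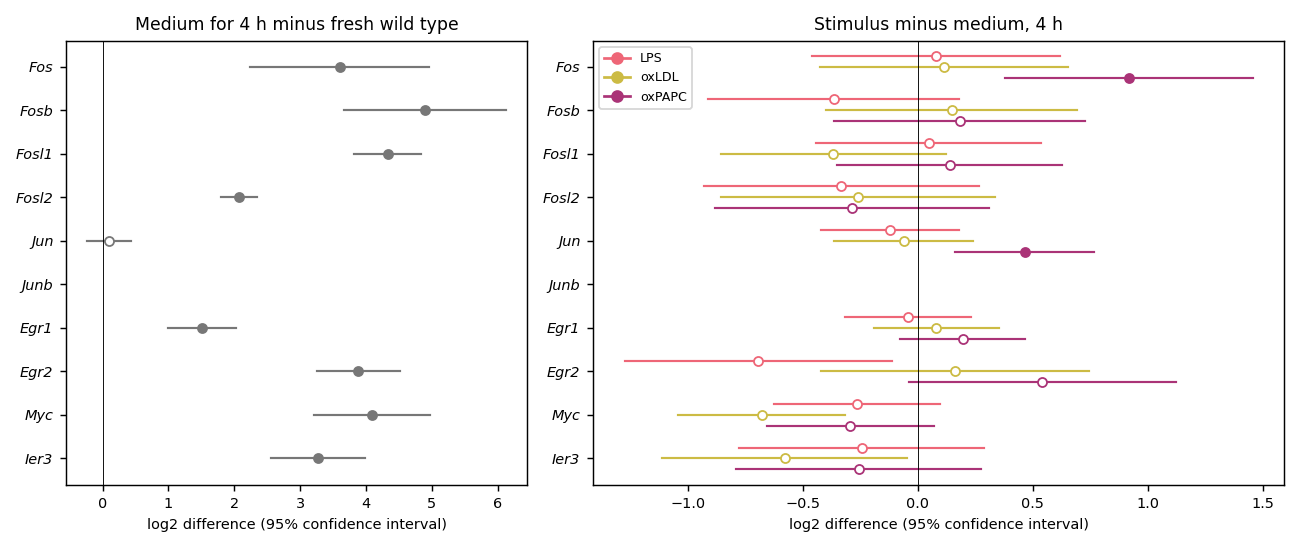
Log2 difference (horizontal axis) of each gene with its 95% confidence interval from limma; left, medium minus fresh wild type; right, each stimulus minus medium, with a scale of its own. Filled points passed an adjusted p of 0.05; Junb was below the level filter. On the left all but Jun are filled, and on the right only Fos and Jun with oxPAPC.

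The genes around these factors were read from 8 lists, also chosen with earlier results of these data known. The lists give counts and medians only, to be read against the 24.3% of all genes that rose and the 34.4% that fell. Of 22 other immediate early genes tested, 16 rose in medium and 2 fell, with a median of 0.85; 2 of the 16 passed the level filter only through the medium arrays. Errfi1, a feedback inhibitor of the EGF receptor, rose by 4.14, Gadd45b, a stress gene, by 3.67 and Ier5 by 2.95. Klf2, a factor that laminar flow keeps high in endothelium, was lower (-1.85), as was Ccn1, a matrix protein gene (-1.32). Of 10 tested AP-1 partners, which pair with Fos or Jun or compete for their sites, 7 rose, 1 of them admitted by the medium arrays alone, and 1 fell, with a median of 1.38. The leaders were Atf3 (3.61), Maff (2.65) and Bach1 (1.97). Of 3 tested EGR relatives and corepressors, 1 rose: Nab2, which Egr1 induces and which holds it back, by 0.41 (limma adjusted p = 0.0176). Without medium replicate 9 its difference was 0.33 (limma adjusted p = 0.0884). Nab2 passed the level filter only through the medium arrays, and of the other 2 tested 0 rose.

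Of 7 tested genes of the MYC network, which shares the partner Max, 1 rose and 2 fell, shares no larger than the 24.3% and 34.4% of all genes. Mxd4, a repressor that competes with Myc for Max, fell by 2.001, Mxd3 fell by 0.48, and Mnt rose by 0.75. Of 5 tested regulators of the SRF, TCF and CREB kind, which act upstream of Fos and Egr1, none rose and Srf itself fell by 0.65.

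Most tested genes of the target lists rose as well. Of 14 tested AP-1 targets, 11 rose and 1 fell, with a median of 3.01. Of the 11, 4 passed the level filter only through the medium arrays (F3, Lif, Il6 and Timp1); of the other 10 tested 7 rose, with a median of 2.68. Hmox1, heme oxygenase, rose by 5.34, Hbegf, a ligand of the EGF receptor, by 4.77 and Plau, urokinase, by 4.43. Edn1, the vasoconstrictor endothelin, fell by 1.80. Of 5 tested EGR1 targets 5 rose, 2 of them (F3 and Nab2) admitted by the medium arrays alone, led by F3, which encodes tissue factor (3.48), Icam1, an adhesion molecule (1.42), and Tgfb1 (1.18). Of 21 tested MYC targets 18 rose, Rrp12 admitted by the medium arrays alone, and 1 fell, with a median of 1.61. Nolc1, Nop58 and Rrp12, all of ribosome assembly, rose by 2.86, 2.65 and 2.64, while Ccnd2 was lower. These targets answer to many other factors, and no measurement here ties them to the 10 genes.

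**Figure D4:**
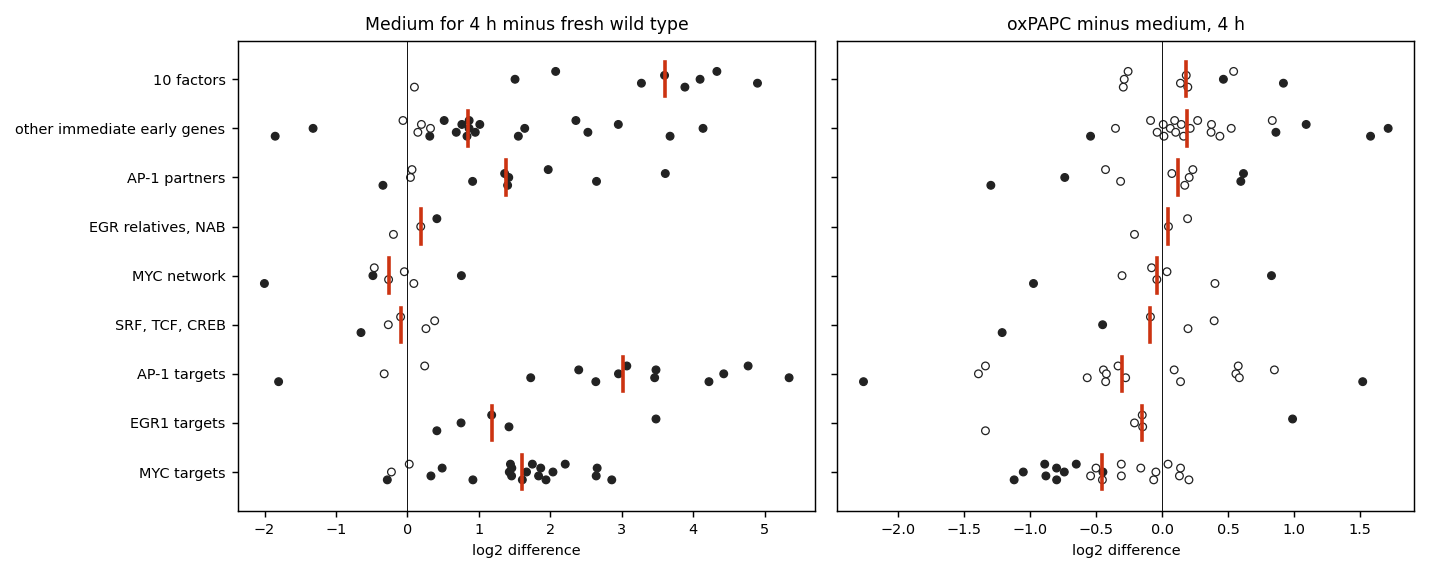
Log2 difference (horizontal axis) of each tested gene of the 10 factors and of 8 lists (rows); left, medium minus fresh wild type; right, oxPAPC minus medium. Filled points passed an adjusted p of 0.05, and red bars are medians. On the left the AP-1 targets (median 3.01) and MYC targets (1.61) lie to the right of 0; on the right the MYC targets lie to the left (-0.45).

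Markers of other cells moved in the same comparison, where 24.3% of all genes were called higher and 34.4% lower. Of 13 smooth muscle markers 11 were lower in medium, with a median of -1.15, and their mean per array went from 8.70 to 9.63 in fresh wild type to 7.53 to 8.54. Of 11 tested macrophage markers 10 were higher (median 1.31), 2 of which passed the level filter only through the medium arrays, with array means of 4.59 to 5.21 fresh and 5.93 to 6.12 in medium. Endothelial markers were 5 higher and 3 lower of 16, with a median of 0.06. Of 7 fibroblast markers 2 were higher and 4 lower, of 6 tested erythroid and platelet markers 3 were lower, and the 1 tested lymphocyte marker was not called. Among the 4 lower fibroblast markers, Pi16 exceeded the level filter on fewer than 3 medium arrays. The part of these shifts in the rise of the 10 genes was not tested.

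The remaining comparisons asked what each stimulus added to the 4 h in medium. The 3 stimuli share the same 3 medium arrays. With oxPAPC, Fos and Jun were higher than in medium and no member was lower. These were 2 of 9 tested, where 8.34% of all 7550 genes were called higher and 12.9% lower, so 21.3% of all genes changed with oxPAPC and the share of members called, 22.2%, was near that background. Fos measured 10.86, 11.06 and 10.33 with oxPAPC and 10.18, 9.76 and 9.56 in medium. The groups did not overlap, although oxPAPC replicate 13 lay close to the highest medium array. The difference was 0.92 ± 0.248, or 1.89-fold (limma adjusted p = 0.0235; interval 0.38 to 1.46). Jun measured 11.14, 11.24 and 10.88 with oxPAPC and 10.57, 10.72 and 10.57 in medium. These too did not overlap, with a difference of 0.46 ± 0.139, or 1.38-fold (adjusted p = 0.0348), and 0.38 by the second Jun probe set. Every oxPAPC array also lay above every medium array in Egr1, which differed by 0.19 (interval -0.08 to 0.47); of all genes 17.9% showed such a separation upward.

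Both calls rest on few arrays. Fos was not called without medium replicate 10 or 11 or oxPAPC replicate 11 or 12, and Jun not without medium replicate 9, 10 or 11 or oxPAPC replicate 11 or 12. With 1 array left out, the Fos difference was 0.77 to 1.13 with an adjusted p of 0.00891 to 0.0956, and that of Jun 0.39 to 0.57 with 0.0143 to 0.134. Without medium replicate 10, Ier3 was called lower with oxPAPC (adjusted p = 0.0304). In a fit of all 22 arrays neither was called, and in a fit of the 6 arrays of the 2 groups only Fos was.

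The members that were not called with oxPAPC had intervals on both sides of 0. Egr2 measured 10.42, 10.42 and 9.79 against 9.84, 9.69 and 9.48 in medium, a difference of 0.54 (interval -0.04 to 1.12; limma adjusted p = 0.166). Fosb differed by 0.18 (-0.37 to 0.73), Fosl1 by 0.14 (-0.35 to 0.63), Fosl2 by -0.29 (-0.89 to 0.31), Myc by -0.29 (-0.66 to 0.07) and Ier3 by -0.26 (-0.79 to 0.28). A further doubling over medium thus lay outside the interval of each of these genes but Egr2.

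The list counts that follow stand beside 8.34% of all genes called higher with oxPAPC and 12.9% called lower. Of 22 other immediate early genes tested with oxPAPC, 4 rose and 1 fell. The orphan nuclear receptor genes Nr4a2 (1.71), Nr4a1 (1.58) and Nr4a3 (1.09) and the pseudokinase gene Trib1 (0.86) rose. Ier2 was lower (-0.54). Nr4a1 and Nr4a2 had adjusted p-values of 0.000886 and 0.000504 (limma). Of 10 AP-1 partners 2 rose and 2 fell: Mafk (0.62) and Atf2 (0.60) were higher, Jdp2, a repressor that dimerizes with Jun (-1.30), and Batf (-0.74) lower. Hmox1 rose by a further 1.52 and Il6, an inflammatory cytokine gene, was lower (-2.26). These were the only calls among 16 AP-1 targets. Il6 and Batf exceeded the level filter on fewer than 3 oxPAPC arrays, with oxPAPC means of 3.80 and 4.24. Of 5 EGR1 targets, Fgf2 rose (0.99). In the MYC network the repressor gene Mxd1 rose (0.83) and Mnt was lower (-0.98). Of 5 SRF, TCF and CREB regulators, Mrtfb and Elk4 were lower (-1.21 and -0.45). Without each of the 6 arrays in turn, Nr4a1, Nr4a2, Jdp2, Hmox1, Fgf2, Mxd1, Mnt and Mrtfb stayed called in 6 of 6 fits. Elk4 and Batf did so in 3, Mafk and Il6 in 2 and Nr4a3 in 1. Trib1 was not called without medium replicate 9 or 10 or oxPAPC replicate 11 or 12. Ier2 was not called without medium replicate 10 or 11 or oxPAPC replicate 11 or 12. Atf2 was not called without medium replicate 11 or oxPAPC replicate 11 or 12.

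The MYC targets that changed with oxPAPC were lower. Of 21 tested, 9 were lower with oxPAPC and none was higher, with a median of -0.45. Of all genes, 12.9% were called lower with oxPAPC and 8.34% higher. Rrp12 was lower (-1.12), as were Cdk4, a cell cycle kinase gene (-1.05), and Apex1, a DNA repair gene (-0.89). Myc itself measured 9.94, 10.18 and 10.28 with oxPAPC and 10.45, 10.66 and 10.17 in medium, and these overlapped. The count fell to 1 without medium replicate 9 or oxPAPC replicate 11, to 3 without oxPAPC replicate 12, and to 5 and 6 without medium replicates 10 and 11, while the median stayed between -0.53 and -0.40.

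With oxPAPC the cell markers moved as well, where 8.34% of all genes were called higher and 12.9% lower. Of 13 smooth muscle markers 9 were higher (median 1.04), with array means of 8.72 to 9.16 beside 7.53 to 8.54 in medium. Of 16 endothelial markers 9 were lower (median -0.98), with means of 7.48 to 8.06 beside 8.37 to 8.54, and 8 of 14 macrophage markers were lower. C1qa, 1 of these 8, exceeded the level filter on fewer than 3 oxPAPC arrays. The oxPAPC array with the lowest Fos, Jun, Egr1 and Egr2 of its group, replicate 13, had the highest endothelial mean (8.06) and the lowest smooth muscle mean (8.72). Medium replicate 11 was lowest of its group in 8 genes, Fos and Jun among them. It had the highest smooth muscle mean of its group (8.54) and also the highest endothelial mean (8.54). The part of these markers in the higher Fos and Jun was not tested.

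LPS was followed by no called change in the 10 genes. Of 9 tested, 0 were called by limma, where 9.05% of all 7550 genes were, and 1, Egr2, had an unadjusted p under 0.05, as did 2071 of all genes; limma with trend and robust prior also called 0. Egr2 measured 8.57, 8.76 and 9.59 with LPS and 9.84, 9.69 and 9.48 in medium. LPS replicates 3 and 4 lay below every medium array and replicate 10 did not, and the difference was -0.70 (interval -1.28 to -0.11; adjusted p = 0.117). Without LPS replicate 10, the array with the highest signal of its group in 8 of the 10 genes, Egr2 was called lower, by 1.00 on the log2 scale (adjusted p = 0.0337). Fos measured 9.89, 9.59 and 10.25 with LPS, within reach of its medium values, with a difference of 0.08 (interval -0.46 to 0.62). Jun differed by -0.12 (-0.42 to 0.18), Egr1 by -0.04 (-0.32 to 0.23), Myc by -0.26 (-0.63 to 0.10), Fosb by -0.37 (-0.91 to 0.18), Fosl1 by 0.05 (-0.44 to 0.54), Fosl2 by -0.33 (-0.93 to 0.27) and Ier3 by -0.24 (-0.78 to 0.29). A doubling by LPS at this time and dose lay outside these intervals, but for Egr1 it would exceed the highest signal of any probe set, so its interval says nothing of one.

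Genes of the surrounding lists did change with LPS, where 3.36% of all genes were called higher and 5.68% lower. Of 16 AP-1 targets, the collagenase gene Mmp13, which exceeded the filter on fewer than 3 medium arrays, rose by 3.57 (limma adjusted p = 0.000392) and Plau by 0.98, and Vegfa, a growth factor gene, was lower (-0.61). Of 10 AP-1 partners 3 were lower and none was higher: Jdp2 (-0.88), Mafg (-0.62) and Bach1 (-0.51). Nab1 was higher (0.45) and Nab2 lower (-0.56), out of 3 EGR relatives and corepressors. Nab2 exceeded the filter on fewer than 3 LPS arrays, with an LPS mean of 4.47. Mnt, Mrtfb, Elk4 and the MAP kinase phosphatase gene Dusp1 were also lower (-0.89, -0.80, -0.52 and -0.50). Of 21 MYC targets none was called. Without each of the 6 arrays in turn, Mmp13 stayed called in 6 of 6 fits, Plau in 4 and Mnt in 2, and the others in 1 or 0. Among markers, 3 of 13 smooth muscle genes were higher, and 4 of 16 endothelial and 4 of 14 macrophage genes lower. Clec14a, 1 of these endothelial genes, exceeded the filter on fewer than 3 LPS arrays.

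With oxLDL, 0 of 9 members were called, where 2.81% of all genes were, 0.742% higher and 2.07% lower; Myc and Ier3 had an unadjusted p under 0.05, as did 1635 genes. Myc came closest. It measured 9.63, 10.01 and 9.59 with oxLDL and 10.45, 10.66 and 10.17 in medium, so that every oxLDL array lay below every medium array, as in 13.9% of all genes. The difference was -0.68 ± 0.167, 1.60-fold lower (limma adjusted p = 0.0503; interval -1.04 to -0.32), and limma with trend and robust prior called it. Ier3 measured 10.19, 10.10 and 9.83 against 10.94, 9.91 and 11.01. These overlapped through medium replicate 10, and the difference was -0.58 (interval -1.11 to -0.05; adjusted p = 0.198). Without that array Ier3 was called lower (adjusted p = 0.0283), and without medium replicate 11 Myc was (0.0494). Fos differed by 0.11 (-0.43 to 0.65), Fosb by 0.15 (-0.40 to 0.69), Egr1 by 0.08 (-0.19 to 0.35), Egr2 by 0.16 (-0.42 to 0.74), Fosl1 by -0.37 (-0.86 to 0.12) and Fosl2 by -0.26 (-0.86 to 0.34). Jun differed by -0.06, but by 0.35 in its second probe set. The second Fosl1 probe set had means of 8.36 with oxLDL and 9.19 in medium, a wider gap than that of the first. With the mean of probe sets 0 members were called. In the 8 lists only Nr4a2 rose (0.73) and only Nop56, a MYC target of ribosome assembly, was lower (-0.61); without 1 array in turn Nr4a2 was called in 0 of 6 fits and Nop56 in 1. Of the markers, 1 of 16 endothelial and 1 of 14 macrophage genes were lower with oxLDL. So were 2 of 7 fibroblast (Lum, -1.56, and Dcn, -0.76) and 1 of 6 erythroid and platelet genes (Hba-a2, -0.84). None of 13 smooth muscle genes was called. Lum and C1qa, the macrophage gene, exceeded the level filter on fewer than 3 oxLDL arrays.

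The stimuli were then set against each other; doses differ between LPS and the lipids, so only oxLDL and oxPAPC were compared at the same mass concentration. Between LPS and oxPAPC 2 of 9 members were lower with LPS, where 3.96% of all genes were lower and 8.65% changed in either direction. Egr2 differed by -1.24 ± 0.267, 2.36-fold lower (limma adjusted p = 0.0159), and its second probe set by -1.16. Its 3 LPS arrays (8.57, 8.76 and 9.59) all lay below its 3 oxPAPC arrays (10.42, 10.42 and 9.79). Jun differed by -0.59 ± 0.139 (adjusted p = 0.0236), again without overlap, and Fos by -0.84 (interval -1.38 to -0.30; adjusted p = 0.0569). All arrays with LPS lay below all with oxPAPC in Fos, Jun, Egr1 and Egr2, as in 13.6% of all genes. None was called without LPS replicate 3 or 4 or oxPAPC replicate 11 or 12; 3 were without LPS replicate 10 and 4 without oxPAPC replicate 13. Smooth muscle means were 8.54 to 8.94 with LPS and 8.72 to 9.16 with oxPAPC, and endothelial means 7.85 to 8.23 and 7.48 to 8.06; their part was not tested.

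Between oxLDL and oxPAPC, Jun was lower with oxLDL, 1 of 9 members, where 4.57% of all genes were lower and 12.4% changed in either direction. Its log2 signals were 10.47, 10.58 and 10.63 with oxLDL, below all 3 oxPAPC arrays, as in 12.5% of all genes, and the difference was -0.53 ± 0.139 (limma adjusted p = 0.0299). The second Jun probe set showed only -0.03, and the call was lost with the mean of both and without any 1 array except oxPAPC replicate 13. With the mean of probe sets Fosl1 was the member called. Fos differed by -0.81 (interval -1.34 to -0.27; adjusted p = 0.0535), Myc by -0.39 (-0.75 to -0.02) and Fosl1 by -0.51 (-0.995 to -0.017), none of them called here, although Fos was with cyclic loess, with the 60th percentile filter and with trend and robust prior. Of 16 endothelial markers 6 were higher with oxLDL (median 0.71), among them the tight junction gene Cldn5 (1.97) and Vwf (1.15), and of 14 macrophage markers 1 was. None of 13 smooth muscle markers was called (median -0.36), and the part of these markers in the Jun difference was not tested. Between LPS and oxLDL, 0 of 9 members were called by limma, where 5.07% of all genes were and 1625 genes had an unadjusted p under 0.05. Egr2 (-0.86, adjusted p = 0.0861) and Myc (0.42, adjusted p = 0.171) were the 2 members below that unadjusted level, and limma with trend and robust prior called 0. Without LPS replicate 10 Egr2 was called (adjusted p = 0.0242).

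Ordered by group mean, the 2 fresh groups stood at the bottom for all 10 genes but Jun, and their ranges overlapped in each. Above them the incubated groups mostly overlapped with their neighbours in the order. Exceptions were Fos, Jun and Ier3. For Fos, oxPAPC (mean 10.75 ± 0.38, SD, n = 3) stood apart from oxLDL (9.95 ± 0.32, SD). For Jun, oxPAPC (11.09 ± 0.19, SD) stood apart from medium (10.62 ± 0.09, SD). For Ier3, oxLDL (10.04 ± 0.19, SD) stood apart from oxPAPC (10.36 ± 0.09, SD). Neither Fos nor Ier3 was called between oxLDL and oxPAPC. Of all genes, 12.5% had every oxLDL array below every oxPAPC array, and 17.9% had every oxPAPC array above every medium array. For Fos, Jun, Egr1, Egr2, Fosb and Fosl1 the highest mean was that of oxPAPC, but only Fos and Jun were called against medium. For Fosb the lead over oxLDL was 0.035. The second Fosl1 probe set was highest in medium (9.19, beside 9.17 with oxPAPC). Medium held the highest mean of Fosl2, Myc and Ier3, and LPS that of Junb.

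The genes nearest in profile over all 22 arrays were found by the root mean square distance between profiles, each gene centred on its own mean. Such distances mostly follow the step from fresh to incubated arrays and say nothing of shared control. Errfi1 was the nearest gene to Fos (0.64), Egr2 (0.53) and Myc (0.49), and second nearest to Fosl1 (0.49) after Tiparp, a target gene of the dioxin receptor (0.48). The second nearest to Fos was Atf3 (0.64). Fosb was closest to Hbegf (0.67) and the amino acid transporter gene Slc7a5 (0.68). Ier3 was closest to Ifrd1 (0.40), which was also second to Myc (0.59), and then to Nop58 (0.42); Egr2 had Cry1, a clock gene, second (0.59). Fosl2 lay near Mrps6 and Etf1 (0.29 and 0.30), Egr1 near Rlim and Slc39a6 (0.28 and 0.29), and Jun, with its different course, near Zfp36l1, an mRNA decay factor of AU-rich transcripts (0.23), and Chp1 (0.25). Junb, near background, lay closest to the Il10ra and Npm1 probe sets (0.14 and 0.16). Among the 10 themselves the closest pairs were Fosl2 with Egr1 (0.39), Jun with Junb (0.40), the latter 2 being those with the smallest range, and Fos with Egr2 (0.48).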

How the data were processed

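The submitters' processing notes name RMA and the affy package, with versions not given in the sources used here. The deposited values are log2 signals, 1 column per array, which the authors had background-corrected, normalized and summarised per probe set. Of 22626 probe sets, 18003 carried 1 symbol in the platform annotation, 287 several and 4336 none; only the first were used, 17977 of them matched to a RefSeq table (GRCm38.p6), for 11807 genes, 4150 of them with more than 1 probe set. A gene was tested when the number of arrays on which it exceeded their 40th percentile reached the size of the smaller group. The test was two-sided, by limma 3.58.1 under R 4.3.3, with lmFit and eBayes; p-values were adjusted by Benjamini-Hochberg across every tested gene, and a gene was called below 0.05. Fits held the 10 fresh arrays, the 9 medium and fresh wild-type arrays, or the 12 incubated arrays. Each ± is a standard error unless SD is written. Genes below the filter were tested by exact permutation. The scripts were tested on simulated data.

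The 10 genes and the 8 lists (114 entries, 102 on the array; markers 75 entries, 66 on the array) were chosen with earlier results of these data known. From each list up to 3 called genes with the largest change were named; Klf2, Ccn1, Edn1, Ccnd2, Trib1, Ier2 and Atf2 were added after their values were seen. Alternatives were other scalings, filters, probe set rules, variance models, sets of arrays and leaving out each array.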

Additional observations from a re-analysis of the deposited data

How the results depend on the processing

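The 8 calls of medium against fresh wild type held under all 7 alternatives (with Junb added where no filter was set) and without each of 9 arrays, and the ApoE comparison gave 0 under all of its own. With oxLDL against medium 1 member was called (Myc) with no filter, with the 60th percentile filter and with trend and robust prior. With oxPAPC against medium 0 were called in the fit of all 22 arrays and 1 in that of only the 2 groups. LPS against oxPAPC gave 1 with all 22 arrays, 0 with the 2 groups only, and 3 (Fos added) with the 60th percentile filter, the mean of probe sets, and trend and robust prior. For oxLDL against oxPAPC the number was 2 with cyclic loess, the 60th percentile filter, and trend and robust prior, and 0 with all 22 arrays or only the 2 groups; with the mean of probe sets Fosl1 took the place of Jun.
Leaving out 1 array gave 0 to 1 members called for LPS against medium, 0 to 1 for oxLDL against medium, 0 to 2 for oxPAPC against medium, 0 to 1 for LPS against oxLDL, 0 to 4 for LPS against oxPAPC and 0 to 2 for oxLDL against oxPAPC. These fits held fewer arrays, and the cause of the changes was not tested.
Differences near 0 changed sign. With the mean of probe sets Jun was -0.12 in medium against fresh wild type and 0.14 in oxLDL against medium, and Fosl1 -0.076 in LPS against medium. With cyclic loess Fos was 0.010 in LPS against oxLDL and Fosl2 -0.019 in oxLDL against oxPAPC; with median centring Ier3 was -0.0073 in LPS against oxPAPC.
The differences that changed sign when 1 array was left out ranged as follows. In ApoE -/- against wild type the range was Fos -0.58 to 0.0083 and Fosb -0.36 to 0.30. In LPS against medium the range was Fos -0.090 to 0.25, Fosl1 -0.071 to 0.26 and Egr1 -0.089 to 0.044. In oxLDL against medium the range was Fos -0.022 to 0.29. In oxPAPC against medium the range was Fosb -0.015 to 0.50. In LPS against oxLDL the range was Fos -0.21 to 0.12 and Fosl2 -0.32 to 0.23. In LPS against oxPAPC the range was Fosl1 -0.17 to 0.031, Fosl2 -0.30 to 0.25, Myc -0.064 to 0.10 and Ier3 -0.039 to 0.091. In oxLDL against oxPAPC the range was Fosb -0.35 to 0.16 and Fosl2 -0.21 to 0.15.
No paired analysis was possible because the groups compared share fewer than 2 replicate numbers. Quantile normalization hides a shift of most genes: the median of all genes from fresh to medium was -0.13, -0.064 with cyclic loess and -0.048 with median centring.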
